A study of Mus musculus with 9 samples.

Results

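The genes described here are 10 mouse genes of the actomyosin cytoskeleton and of its control by the transcription factor SRF, among the 23453 gene symbols of the count table. They are Acta2, Tagln, Cnn1, Myl9, Tpm1, Tpm2, Actn1, Ankrd1, Amotl2 and Srf, and all 10 were found by symbol and each matched to a single GENCODE gene. The list was chosen with measured values of these same libraries known, and which comparison weighed in the choice is not recorded. Levels and differences of the 10 genes are therefore given as a description, with no test, and adjusted p-values are given only for other genes of the same pathways.

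The study compared bulk RNA-seq libraries of cultured mouse cells in 3 states, with 3 replicate libraries in each. EpiLC (epiblast-like cells) were derived from naive ESCs over 48 h in N2B27 medium with 1% KSR (a serum replacement), FGF2 and Activin A. aEpiLC (anterior epiblast-like cells) were EpiLC kept for 24 h more in N2B27 alone by the labels, whereas the methods add KSR to this medium. pEpiLC (posterior epiblast-like cells) were EpiLC kept for 24 h more with Activin and CHIR99021, an agonist of Wnt/β-catenin signalling. By the methods its base was N2B27 with 1% KSR. The methods list no FGF2 in the aEpiLC or the pEpiLC medium, so both later states also differ from EpiLC in FGF2. The states share the EpiLC culture step, but whether their libraries came from the same EpiLC culture is not stated. The line the cells were grown from is not named for the libraries, and EpiLC differ from the other states also by the 24 h of further culture. The labels do not say that replicates were separate cultures, so the p-values below measure only the spread between these libraries, which may be technical.

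SRF binds a short element named the CArG box and works with partners of 2 kinds. The myocardin-related factors MRTF-A and MRTF-B are held in the cytoplasm by monomeric actin and enter the nucleus when actin polymerises, and their targets are largely genes of actin filaments, focal adhesions and contraction. The ternary complex factors, of the Elk family, respond to MAP kinase signalling and serve immediate early genes. YAP and TAZ, the effectors of the Hippo pathway, bind DNA through TEAD factors, also respond to actin tension and share several targets with MRTF and SRF. In the epiblast the actomyosin cortex shapes the epithelium and is remodelled where cells leave it at the primitive streak.

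Promoter sequences are shown for the genes whose window held one of the elements searched, apart from Ankrd1, which had next to no counts, because these elements are what SRF and TEAD factors are known to bind. RefSeq (GRCm38.p6) windows of 300 bases, from 250 before to 50 after the start site, were found for 9 of the 10 genes. Tagln is named only. A CArG box is CC, then 6 bases that are A or T, then GG, and reads as itself on both strands. It stood in the windows of Myl9 and Srf, 2 of 9, and in 1.63% of 32851 windows of all genes. Allowing 1 G or C among the 6 central bases, Acta2 joined them, 3 of 9, against 9.98% of all windows. The TEAD motif, GGAATG or CATTCC on the other strand, stood in the windows of Acta2, Tpm1, Ankrd1 and Amotl2, 4 of 9, against 14.7% of all windows. The CArG box and the TEAD motif did not overlap in any of these windows. The windows of Cnn1, Tpm2 and Actn1 held neither. Capitals mark the matches, and positions count from the start site along the gene.

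Srf, 160 bases upstream at chr17:46556176-46556335, minus strand, with CArG boxes at -82 to -73 and -62 to -53.
Srf: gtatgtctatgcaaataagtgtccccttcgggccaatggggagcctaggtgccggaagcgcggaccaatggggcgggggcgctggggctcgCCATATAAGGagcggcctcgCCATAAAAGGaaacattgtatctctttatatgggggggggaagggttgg
Myl9, 160 bases upstream at chr2:156775260-156775419, plus strand, with a CArG box at -161 to -152 and a match with 1 G at -99 to -90.
Myl9: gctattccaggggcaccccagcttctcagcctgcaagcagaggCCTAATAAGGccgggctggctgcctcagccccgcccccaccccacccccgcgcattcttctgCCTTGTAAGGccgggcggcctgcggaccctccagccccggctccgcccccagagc
Acta2, minus strand, with CArG matches that hold 1 G or C at -84 to -75 (chr19:34255438-34255467) and -34 to -25 (chr19:34255388-34255417), and a TEAD motif at -146 to -141 (chr19:34255502-34255531).
Acta2, first CArG match: gtgctgaggtCCCTATATGGttgtgttaga
Acta2, next CArG match: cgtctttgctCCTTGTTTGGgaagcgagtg
Acta2, TEAD motif: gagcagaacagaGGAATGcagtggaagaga
Tpm1, minus strand, chr9:67049252-67049281, with a TEAD motif at -56 to -51.
Tpm1: tggctgtcctaaGGAATGcggtcgcccccc
Amotl2, plus strand, chr9:102717727-102717756, with a TEAD motif at -65 to -60.
Amotl2: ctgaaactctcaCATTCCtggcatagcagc

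A match says only that these letters stand in the window, and the libraries hold no measure of factor binding. The windows of Acta2, Tpm1 and Amotl2 lie in part within exons of longer GENCODE transcripts, so that 30 bases around each match are shown.

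**Figure D1:**
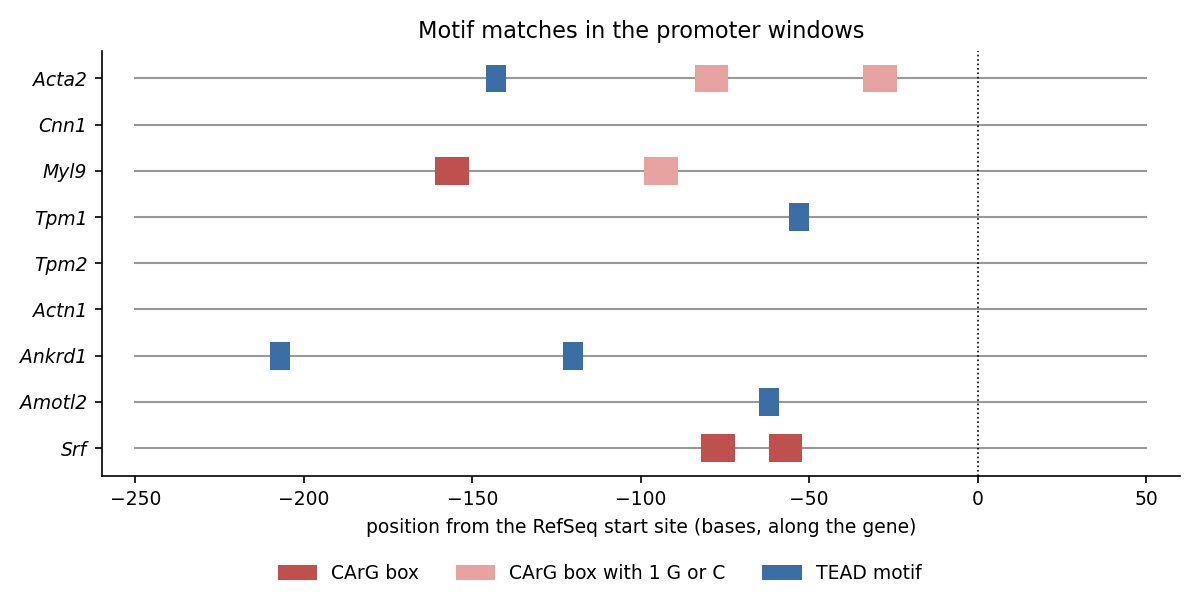
Positions of CArG boxes (dark red), CArG matches with 1 G or C among the central bases (light red) and TEAD motifs (blue) in the RefSeq windows of 9 genes, drawn to scale from 250 bases before to 50 bases after the start site (dotted line). CArG matches stand in Acta2, Myl9 and Srf, TEAD motifs in Acta2, Tpm1, Ankrd1 and Amotl2, and neither in Cnn1, Tpm2 and Actn1.

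Total expected counts were between 20560564 and 23417917 per library, and 3 counts, taken as the detection limit, equalled 0.131 to 0.144 CPM (TMM-normalised counts scaled to library size). The 6 epiblast markers Pou5f1, Fgf5, Dnmt3b, Otx2, Pou3f1 and Utf1 were above that limit in every state and together reached 4440 to 4750 CPM in EpiLC, 4120 to 4340 in aEpiLC and 1810 to 3090 in pEpiLC. pEpiLC replicate 1 stood apart from the other pEpiLC libraries. It differed from replicates 2 and 3 by over 4-fold at 324 and 331 genes, against 57 to 76 genes for every other pair within a state. In it the 8 markers of primitive streak and mesoderm summed to 2690 CPM, against 524 and 514 in replicates 2 and 3, 4.79 to 7.27 in EpiLC and 8.5 to 9.52 in aEpiLC. T, the brachyury gene, was at 1090 CPM there against 206 and 222. Most differences that rest on pEpiLC are given with and without this library.

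Markers of muscle, fibroblasts and extraembryonic endoderm summed to less than the epiblast markers in every library. The 5 smooth muscle markers Myh11, Smtn, Lmod1, Myocd and Des summed to 54.4 to 61.8 CPM in EpiLC, 58.5 to 63.0 in aEpiLC and 47.0 to 62.3 in pEpiLC, and all 5 are also in the SRF lists below. Most of that sum was Smtn, at means of 48.2, 43.7 and 43.1 CPM in EpiLC, aEpiLC and pEpiLC. For Myh11 (means of 1.15, 3.06 and 1.35 CPM), Lmod1 (1.16, 2.13 and 0.806), Des (7.71, 11.2 and 7.69) and Myocd (0.137, 0.780 and 0.134), every aEpiLC library was above every library of both other states, as for Acta2 (29.8% of all genes tested had every aEpiLC library above every EpiLC library). Against EpiLC, Myh11 and Myocd were called higher in aEpiLC by at least 2-fold (edgeR adjusted p = 0.00132 and 0.00683), and Lmod1 and Des differed by less (log2 0.86 and 0.53, adjusted p = 0.0211 and 0.0216). The 8 striated muscle markers summed to 36.0 to 44.9, 36.7 to 41.8 and 12.8 to 16.7 CPM. Most of each sum was Myh6, at means of 33.7, 35.0 and 13.3 CPM in EpiLC, aEpiLC and pEpiLC. Of the 8 markers, Myog was at the limit of 3 counts or less in all EpiLC libraries, Nkx2-5 and Tnni1 in all aEpiLC libraries, and these 3 and Tnnt2 in all pEpiLC libraries. The 6 fibroblast markers in the table summed to 21.6 to 25.8, 24.3 to 27.2 and, in pEpiLC replicates 1, 2 and 3, to 34.1, 16.3 and 17.5 CPM, with Postn and Lum not analysed here. The 6 extraembryonic endoderm markers in the table, Afp and Ttr not being analysed here, summed to 74.4 to 84.2 CPM in EpiLC and 171 to 176 in aEpiLC, of which Sparc made 156 to 163, and to 160, 78.7 and 83.7 in pEpiLC replicates 1, 2 and 3. In pEpiLC replicate 1 Gata6 was at 46.7 CPM against 0.0876 and 0.140 in the other replicates, Gata4 at 12.4 against 0.438 and 0.326 and Pdgfra at 51.8 against 2.15 and 2.14. Sox7 was at the limit or less in all aEpiLC and pEpiLC libraries. The part of other cells in the levels below was not tested, and in bulk libraries fewer cells of a kind and less RNA per cell cannot be told apart.

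Acta2, smooth muscle α-actin, was higher in aEpiLC than in the other states. It was at 3.19, 2.75 and 4.61 CPM in EpiLC replicates 1, 2 and 3, at 14.0, 22.1 and 26.9 in those of aEpiLC and at 2.68, 4.95 and 4.94 in those of pEpiLC. Every aEpiLC library was above every library of the other states, and EpiLC and pEpiLC overlapped. The means were 3.52 ± 0.975 CPM in EpiLC, 21.0 ± 6.51 in aEpiLC and 4.19 ± 1.31 in pEpiLC (SD, n = 3). The log2 fold change was 2.56 ± 0.235 (SE) in aEpiLC against EpiLC, which is 5.89-fold, and -2.33 ± 0.306 in pEpiLC against aEpiLC, or -2.09 without pEpiLC replicate 1. From EpiLC to pEpiLC it was 0.25 ± 0.301, less than its error, and without pEpiLC replicate 1 it was 0.48 ± 0.217 with both remaining libraries just above the EpiLC libraries. Actins are near-identical in sequence and some reads cannot be assigned to 1 of them with certainty, although 8 of the 9 Acta2 counts were whole numbers.

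Tagln, the actin-binding protein transgelin of smooth muscle, had the largest difference between aEpiLC and EpiLC among the 9 genes that passed the count filter. It was at 12.8, 10.8 and 10.7 CPM in the EpiLC libraries, at 74.3, 118 and 132 in aEpiLC and at 16.3, 45.8 and 55 in pEpiLC. No library of one state overlapped those of another, in the order EpiLC, pEpiLC, aEpiLC. The means were 11.4 ± 1.17, 108 ± 30.3 and 39 ± 20.2 CPM in EpiLC, aEpiLC and pEpiLC (SD, n = 3). The log2 fold change was 3.23 ± 0.178 (SE) in aEpiLC against EpiLC, 9.40-fold. In pEpiLC it was -1.48 ± 0.407 against aEpiLC and 1.77 ± 0.392 against EpiLC, and without pEpiLC replicate 1 these were -1.11 ± 0.192 and 2.14 ± 0.103. Tagln exons overlap those of Pcsk7 and Gm48529 on the opposite strand, the strand setting of the libraries is not stated, and none of its 9 counts was whole. Pcsk7 lay between 10.7 and 19.2 CPM and Gm48529 between 0.326 and 3.40 CPM in the 9 libraries.

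Cnn1, calponin 1, which binds actin and tropomyosin in smooth muscle, was likewise highest in aEpiLC. It was at 12.4, 13.2 and 12.7 CPM in EpiLC, at 35.1, 48.4 and 51.9 in aEpiLC and at 9.0, 18.5 and 19.7 in pEpiLC. The EpiLC libraries lay within 1.06-fold of each other, and the pEpiLC libraries fell on both sides of them. The log2 fold change was 1.81 ± 0.128 (SE) in aEpiLC against EpiLC and -1.53 ± 0.283 in pEpiLC against aEpiLC (-1.25 without pEpiLC replicate 1). Against EpiLC, pEpiLC differed by 0.30 ± 0.264, and by 0.58 ± 0.104 without replicate 1, with both remaining libraries above EpiLC.

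Myl9, a regulatory light chain of smooth muscle and nonmuscle myosin II, was highest in aEpiLC and lowest in pEpiLC. It was at 29.3, 29.8 and 33.0 CPM in EpiLC, at 46.8, 70.3 and 85.2 in aEpiLC and at 8.95, 25.0 and 26.7 in pEpiLC. No library of one state overlapped those of another, in the order pEpiLC, EpiLC, aEpiLC. The log2 fold change was 1.12 ± 0.158 (SE) in aEpiLC against EpiLC, -1.75 ± 0.387 in pEpiLC against aEpiLC and -0.61 ± 0.343 in pEpiLC against EpiLC. Without pEpiLC replicate 1, in which Myl9 was 2.88 times lower than the mean of the other replicates, the differences of pEpiLC were -1.39 ± 0.194 and -0.25 ± 0.0858.

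The tropomyosins Tpm1 and Tpm2, which lie along actin filaments and govern access of myosin, differed from each other in their order over the states. Tpm1 was at 200, 195 and 193 CPM in EpiLC, at 384, 446 and 495 in aEpiLC and at 144, 279 and 305 in pEpiLC. Every aEpiLC library was above all others, and the pEpiLC libraries lay on both sides of EpiLC. Its log2 fold change was 1.16 ± 0.0795 (SE) in aEpiLC against EpiLC and -0.88 ± 0.250 in pEpiLC against aEpiLC, or -0.61 ± 0.0979 without pEpiLC replicate 1. Against EpiLC, Tpm1 in pEpiLC differed by 0.30 ± 0.237, and by 0.57 ± 0.0529 without that library. Unlike Tpm1, Tpm2 was no higher in aEpiLC than in EpiLC. Tpm2 was at 41.1, 50.3 and 45.6 CPM in EpiLC, at 40.8, 48.2 and 52.0 in aEpiLC and at 25.8, 34.7 and 32.4 in pEpiLC. The EpiLC and aEpiLC libraries of Tpm2 overlapped, with a log2 difference of 0.03 ± 0.0963, and all pEpiLC libraries were below both. In pEpiLC, Tpm2 differed by -0.61 ± 0.134 from aEpiLC and by -0.57 ± 0.127 from EpiLC on the log2 scale, and by -0.49 and -0.45 without replicate 1.

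Actn1, a nonmuscle α-actinin that crosslinks actin filaments, was the one gene of the 9 that was highest in pEpiLC replicate 1. It was at 144, 148 and 142 CPM in EpiLC, at 193, 207 and 202 in aEpiLC and at 226, 130 and 130 in pEpiLC. pEpiLC replicate 1 was above, and replicates 2 and 3 were below, every library of the other states. The log2 fold change was 0.46 ± 0.0567 (SE) in aEpiLC against EpiLC, with no overlap of libraries. In pEpiLC it was -0.31 ± 0.210 against aEpiLC and 0.16 ± 0.208 against EpiLC, and without replicate 1 it was -0.63 ± 0.0662 and -0.16 ± 0.0544, so that the direction against EpiLC rests on that library. Actn1 exons overlap those of Gm47766 and Gm47767 on the opposite strand, which reached at most 3.83 and 0.0904 CPM, and 7 of its 9 counts were not whole.

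Amotl2 and Ankrd1 are known as YAP-TEAD targets, and Ankrd1 also encodes a stress-responsive muscle protein. Amotl2, an angiomotin that binds YAP and links junctions to actin, was at 175, 171 and 161 CPM in EpiLC, at 282, 297 and 287 in aEpiLC and at 99.9, 131 and 128 in pEpiLC. No library of one state overlapped those of another, in the order pEpiLC, EpiLC, aEpiLC, and the aEpiLC libraries lay within 1.05-fold of each other. Its log2 fold change was 0.76 ± 0.0569 (SE) in aEpiLC against EpiLC, -1.28 ± 0.103 in pEpiLC against aEpiLC and -0.50 ± 0.101 in pEpiLC against EpiLC. The last pair were -1.16 and -0.39 without pEpiLC replicate 1. Ankrd1 had 0 counts in the 3 EpiLC libraries, 2, 3 and 2 in those of aEpiLC and 0, 1 and 2 in those of pEpiLC. All 9 counts were at or under the limit of 3, so Ankrd1 failed the filter and no difference was detectable at this depth.

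Srf itself differed by less than 2-fold between the state means, and its spread was widest within aEpiLC. It was at 98.5, 90.7 and 95.8 CPM in EpiLC, at 79.4, 105 and 129 in aEpiLC and at 78.5, 76.6 and 82.9 in pEpiLC. The aEpiLC libraries spanned those of EpiLC and overlapped those of pEpiLC, and every pEpiLC library was below every EpiLC library. The log2 fold change was 0.12 ± 0.125 (SE) in aEpiLC against EpiLC, -0.41 ± 0.156 in pEpiLC against aEpiLC and -0.26 ± 0.0609 in pEpiLC against EpiLC. Leaving out pEpiLC replicate 1 gave -0.40 and -0.26 for the last pair, and leaving out aEpiLC replicate 3 gave -0.05 for the first.

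**Figure D2:**
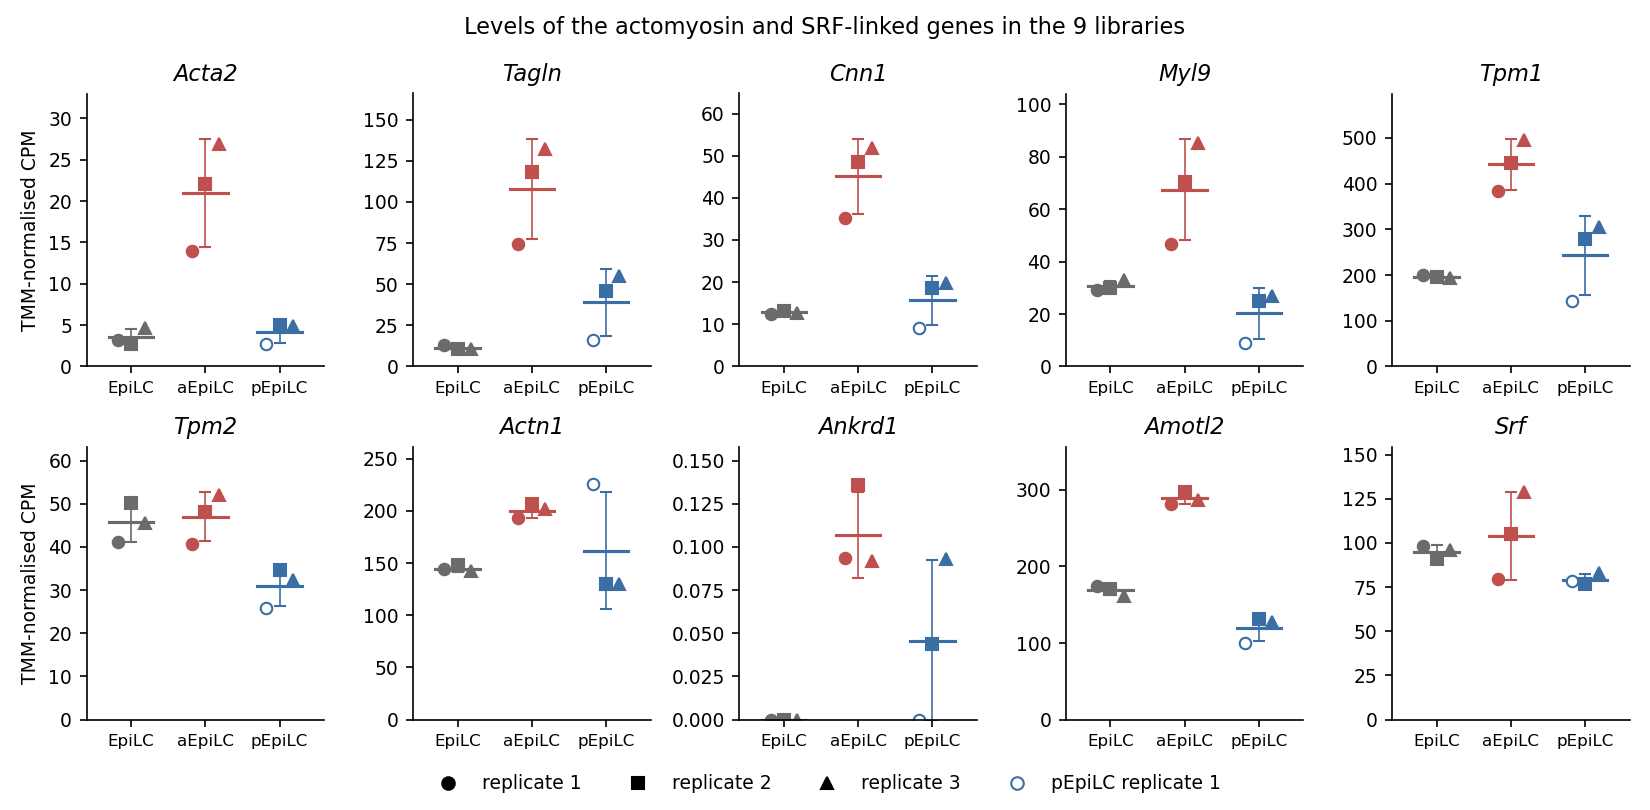
TMM-normalised CPM of the 10 genes in each of the 9 libraries (points, shaped by replicate), with the mean (line) and SD (bar) of each state, on axes that start at 0. aEpiLC lies above EpiLC and pEpiLC for Acta2, Tagln, Cnn1, Myl9, Tpm1 and Amotl2, and the open circle, pEpiLC replicate 1, is the lowest pEpiLC library for all genes but Actn1 and Srf, at 0 for Ankrd1.

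Over the 9 genes that passed the filter, all had a positive log2 fold change in aEpiLC against EpiLC, and 5 had one of at least 1. The libraries did not overlap for 7 of them, all higher in aEpiLC, where 29.8% of 15301 genes tested had every aEpiLC library above every EpiLC library and 26.3% had every one below. The median over the 9 genes was 1.12, beside 0.00 over all genes tested. In pEpiLC against aEpiLC all 9 were negative, 5 were at -1 or lower and the median was -1.28, beside 0.01 over all genes. Libraries did not overlap for 7, all lower in pEpiLC, where 19.6% of 15198 genes had every pEpiLC library below and 19.4% had every one above. Without pEpiLC replicate 1, 8 did not overlap and the median was -1.11. In pEpiLC against EpiLC the genes divided into 5 positive and 4 negative differences with a median of 0.16. Tagln was non-overlapping and higher, Myl9, Tpm2, Amotl2 and Srf were non-overlapping and lower, and 4 genes overlapped. The shares of 15288 genes tested were 30.2% for libraries all above and 28.4% for all below. Without pEpiLC replicate 1, 4 genes were higher and 5 lower without overlap, with a median of -0.16. The shares over all genes were taken with all 3 libraries of each state and not without pEpiLC replicate 1. With 2 libraries against 3, libraries fail to overlap more readily, so the counts without that library have no share beside them. These counts belong to genes selected on values of these libraries and nothing is read from them against the shares, and the 3 comparisons share libraries, since each state enters 2 of them.

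**Figure D3:**
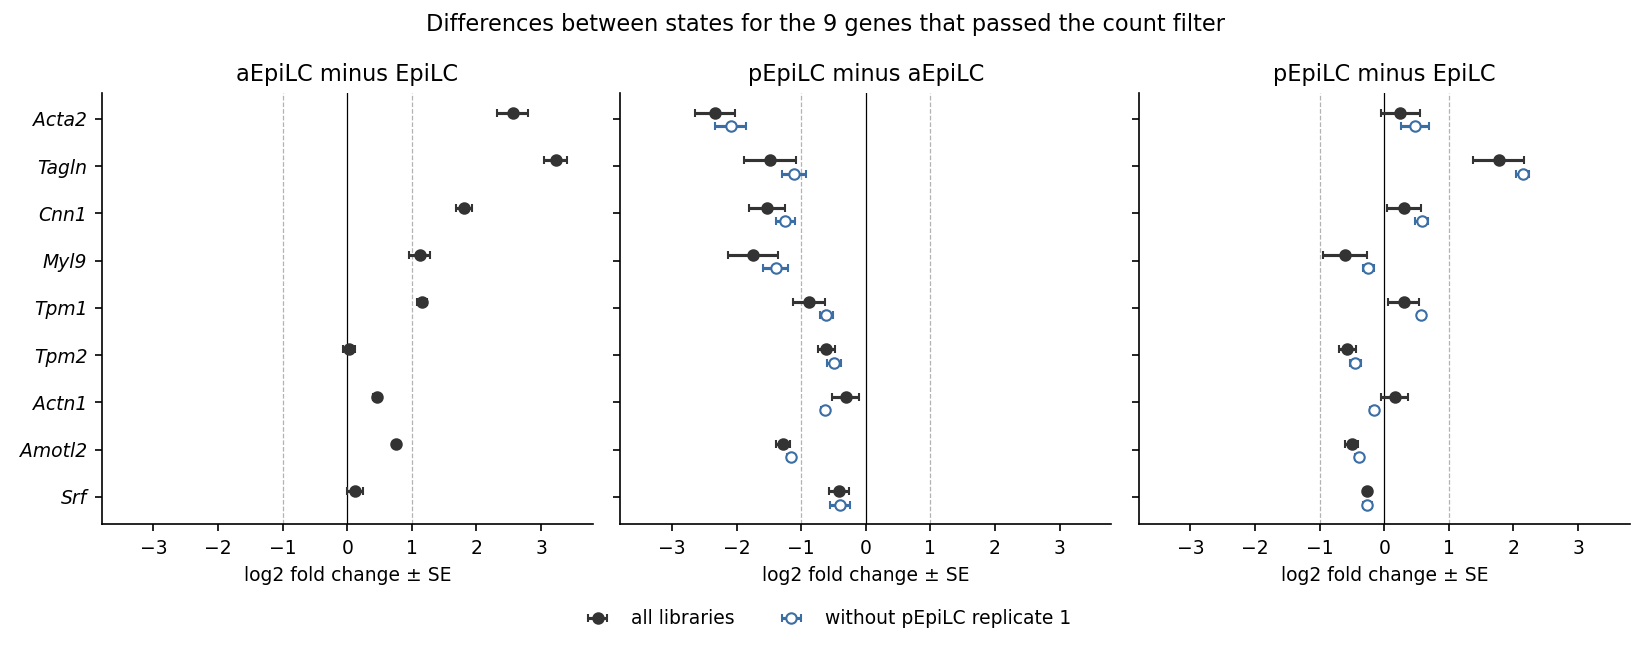
Log2 fold change ± SE of 9 genes in the 3 comparisons, with all libraries (filled) and without pEpiLC replicate 1 (open), and dashed lines at 2-fold. All 9 lie at or above 0 in aEpiLC minus EpiLC and below 0 in pEpiLC minus aEpiLC, and in pEpiLC minus EpiLC Tagln stands alone above 1.

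The replicates also differed in a shared way. aEpiLC replicate 1 had the lowest level of the 3 aEpiLC libraries for all 9 genes, and replicate 3 the highest for 7 of them, with replicate 2 highest for Actn1 and Amotl2. In EpiLC, by contrast, each replicate was the lowest for between 2 and 4 of the 9 genes. pEpiLC replicate 1 was the lowest pEpiLC library for Acta2, Tagln, Cnn1, Myl9, Tpm1, Tpm2 and Amotl2, and the highest for Actn1. The mean of replicates 2 and 3 over replicate 1 was 3.10 for Tagln, 2.88 for Myl9, 2.12 for Cnn1, 2.03 for Tpm1, 1.84 for Acta2, 1.3 for Tpm2 and for Amotl2, 1.02 for Srf and 0.573 for Actn1. This library is the one with the highest streak markers, among them Mesp1 at 71.4 CPM against 0.00 and 0.0931, and the part of that difference in the levels of these genes was not tested.

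Levels were compared between genes per kilobase of all annotated exons. In EpiLC the order was Srf at 32.8 CPM per kb, Tpm1 at 30.2, Amotl2 at 26.9, Myl9 at 26.4 and Actn1 at 26.1, the last 3 within their replicate spread of each other, then Tpm2 at 15.7, with Tagln at 5.75, Cnn1 at 4.66 and Acta2 at 1.60. In aEpiLC Tpm1 led with 68.1 CPM per kb, followed by Myl9 at 58.1 and Tagln at 54.5, whose replicate spreads overlap, while Acta2 was at 9.57 and Srf at 36.1. In pEpiLC Tpm1 was at 37.4, Actn1 at 29.3, Srf at 27.4, Tagln at 19.6, Amotl2 at 19.0, Myl9 at 17.4, Tpm2 at 10.6, Cnn1 at 5.75 and Acta2 at 1.91 CPM per kb. Over pEpiLC replicates 2 and 3 alone the order was Tpm1 at 45.0, Srf at 27.5, Tagln at 25.4, Actn1 at 23.5, Myl9 at 22.2, Amotl2 at 20.7, Tpm2 at 11.5, Cnn1 at 6.98 and Acta2 at 2.25, so that the place of Actn1 above Srf and Tagln rests on replicate 1. The broadly expressed cytoplasmic actins were far more abundant, with Actb at 762 and Actg1 at 912 CPM per kb in EpiLC.

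Other genes of the pathways came from 7 lists with 107 genes, none of which is among the 10, and 6 of the lists are described singly. A gene counted as called when it differed at least 2-fold between states and its Benjamini-Hochberg adjusted p, over all genes in edgeR's quasi-likelihood test, was under 0.05. In aEpiLC against EpiLC, 7.25% of all genes were called higher and 5.24% lower. Of the 102 pathway genes tested there, 19 (18.6%) were called higher and 1 (0.98%) lower. In pEpiLC against aEpiLC, 2.55% of all genes were called higher and 4.74% lower, and 3 (2.88%) and 14 (13.5%) of 104 pathway genes. The 14 became 13 without pEpiLC replicate 1, and 9, 5 and 6 without aEpiLC replicate 1, 2 or 3. In pEpiLC against EpiLC, 7.71% of all genes were called higher and 8.13% lower, and 12 (11.9%) and 3 (2.97%) of 101 pathway genes, or 13 and 2 of 103 without pEpiLC replicate 1.

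MRTF-SRF targets, 28 genes of focal adhesions, filaments and contraction, had 7 members called higher and 0 lower in aEpiLC against EpiLC, and 0 higher and 7 lower of 28 in pEpiLC against aEpiLC. The list's median log2 fold change was 0.64 in the first comparison and -0.52 in the second, against 0.00 and 0.01 over all genes, and the second was -0.55 with 6 lower without pEpiLC replicate 1. The count of 7 lower fell to 4 without aEpiLC replicate 1 and to 2, Cald1 and Csrp1, without aEpiLC replicate 2 and again without replicate 3. Cald1, caldesmon, which binds actin and restrains myosin, was at 49.2, 48.5 and 47.0 CPM in EpiLC, 216, 207 and 192 in aEpiLC and 90.0, 80.5 and 89.3 in pEpiLC. Its libraries did not overlap between any of the states. It rose by 2.07 ± 0.0646 (log2, SE) in aEpiLC against EpiLC (edgeR adjusted p = 2.57e-10) and fell by 1.25 ± 0.0767 from aEpiLC to pEpiLC (adjusted p = 1.50e-04), or by 1.28 without pEpiLC replicate 1. Csrp1, a LIM protein of actin filaments, was at 49.9, 51.3 and 49.5 CPM in EpiLC, 112, 142 and 149 in aEpiLC and 31.5, 46.3 and 49.5 in pEpiLC. It rose by 1.40 ± 0.0919 (adjusted p = 8.54e-08) and fell by 1.67 ± 0.177 (adjusted p = 0.00128), with a difference of -1.5 without that library, in the same comparisons, with aEpiLC above all other libraries.

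Tgfb1i1, the focal adhesion protein Hic-5, rose by 2.19 ± 0.198 (log2, SE) in aEpiLC against EpiLC (edgeR adjusted p = 1.44e-06), from a mean of 2.56 ± 0.388 to 11.9 ± 2.82 CPM (SD, n = 3). Nexn, the filament protein nexilin, fell by 1.43 ± 0.390 in pEpiLC against aEpiLC (adjusted p = 0.0458), from 7.31 to 2.73 CPM, and by 1.06 ± 0.209 without pEpiLC replicate 1. The call for Nexn was lost without any 1 aEpiLC replicate (adjusted p from 0.109 to 0.156) and without pEpiLC replicate 2 (0.0884). In pEpiLC against EpiLC the list had 2 genes called higher, Zyx and Tgfb1i1, and 1 lower, Synpo2, of 27, with a median of 0.01, or 2 and 0 of 28 with a median of -0.01 without pEpiLC replicate 1. Synpo2, named after its values were seen, was at 5.69, 4.70 and 5.27 CPM in EpiLC and 1.68, 2.63 and 3.21 in pEpiLC, and without pEpiLC replicate 1 its log2 difference of -1.06 became -0.84. Its call there was also lost without EpiLC replicate 1. Zyx, the adhesion protein zyxin, was at 59.9, 67.1 and 72.8 CPM in EpiLC, 98.6, 121 and 137 in aEpiLC and 151, 138 and 142 in pEpiLC. It rose by 1.11 ± 0.0842 from EpiLC to pEpiLC (adjusted p = 1.48e-04), or by 1.07 without replicate 1, and between aEpiLC and pEpiLC it differed by 0.27 ± 0.115 (adjusted p = 0.159), which was no call.

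The actin paralogs divided by kind. Acta1 and Actc1, the skeletal and cardiac α-actins, were highest in aEpiLC, as Acta2 was. Acta1 was at 2.40, 1.77 and 2.65 CPM in EpiLC, 17.1, 27.0 and 31.5 in aEpiLC and 1.77, 6.27 and 7.03 in pEpiLC. Actc1 was at 1.25, 1.49 and 1.00, at 11.5, 16.7 and 22.8, and at 2.11, 6.53 and 5.96 CPM. In both, every aEpiLC library was above all others, and the lowest pEpiLC library was replicate 1. Acta1 rose by 3.45 ± 0.226 and Actc1 by 3.75 ± 0.260 (log2, SE) in aEpiLC against EpiLC (edgeR adjusted p = 8.93e-08 and 1.31e-07). They fell by 2.33 ± 0.450 (adjusted p = 0.0145) and 1.81 ± 0.409 (adjusted p = 0.0248) from aEpiLC to pEpiLC, calls that were lost without aEpiLC replicate 2 (adjusted p = 0.0668 and 0.0874) or 3 (0.0678 and 0.101). The falls were 1.93 ± 0.227 and 1.45 ± 0.241 without pEpiLC replicate 1. From EpiLC to pEpiLC, Actc1 rose by 1.96 ± 0.429 (adjusted p = 0.00892), or by 2.32 without pEpiLC replicate 1, and Acta1 differed by 1.13 ± 0.468 (adjusted p = 0.0839), which became 1.54 and a call without pEpiLC replicate 1 (adjusted p = 1.78e-05). DESeq2 and the likelihood ratio test also called Acta1 there (adjusted p = 0.0408 and 0.0486).

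The cytoplasmic actins were not called in any comparison by the rule on size. Actb was at 2040 ± 59.3, 2230 ± 251 and 1610 ± 72.8 CPM (SD, n = 3) in EpiLC, aEpiLC and pEpiLC, and Actg1 at 2420 ± 83.9, 3210 ± 532 and 2340 ± 240. Their log2 differences in pEpiLC against aEpiLC were -0.48 ± 0.0905 and -0.47 ± 0.130 (SE; edgeR adjusted p = 0.0132 and 0.0489), each under 2-fold, and were -0.45 and -0.38 without pEpiLC replicate 1. Actg2, the enteric smooth muscle actin, did not pass the filter, at a mean of 0.155, 0.458 and 0.0913 CPM. Of the other α-actinins, Actn4 was at 590, 542 and 485 CPM, Actn3 at 19.0, 19.3 and 14.3 and Actn2 at 8.21, 7.30 and 6.28, and none was called.

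Of the SRF cofactors, 1 of 7 was called higher in aEpiLC against EpiLC, 1 of 6 in pEpiLC against EpiLC and 0 of 7 in pEpiLC against aEpiLC, with none called lower, and 0 of 6 in pEpiLC against EpiLC without pEpiLC replicate 1. The count in aEpiLC against EpiLC was 2 without aEpiLC replicate 1 or 2 or EpiLC replicate 2. Mrtfa was at 30.1 ± 3.22, 30.8 ± 1.41 and 25.2 ± 0.990 CPM (SD, n = 3) in EpiLC, aEpiLC and pEpiLC, and Mrtfb at 32.1 ± 3.28, 35.1 ± 6.85 and 40.4 ± 6.69. Neither was called, with adjusted p of 0.0572 or more for Mrtfa and 0.0869 or more for Mrtfb in edgeR's test. Scai, a repressor of MRTF, was at 29.3, 27.3 and 32.0 CPM, Elk1 at 26.6, 28.5 and 31.2 and Elk4 at 17.0, 17.4 and 20.5, none of them called. Myocd, the cofactor of smooth and cardiac muscle, was called higher in aEpiLC than EpiLC (log2 2.46 ± 0.643, adjusted p = 0.00683) at 0.703, 1.13 and 0.506 CPM against 0.00, 0.279 and 0.131. It was at 0.0958, 0.307 and 0.00 CPM in pEpiLC. Against aEpiLC its log2 difference was -2.47 ± 0.761 with no call (edgeR adjusted p = 0.0668), and -2.28 without pEpiLC replicate 1. The likelihood ratio test made a call there (adjusted p = 0.00219), as did leaving out pEpiLC replicate 2 (adjusted p = 0.0392). Elk3 was called higher in pEpiLC than EpiLC (log2 1.48 ± 0.433, adjusted p = 0.0265) at 5.03, 1.93 and 2.00 CPM against 1.06, 1.26 and 0.870. The Elk3 call was lost without pEpiLC replicate 1, with a log2 difference of 0.88, and without any 1 EpiLC replicate, with an adjusted p of 0.0658 to 0.0974.

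Of the TCF-SRF immediate early targets, 1 of 6 was called higher in aEpiLC against EpiLC, 1 of 7 in pEpiLC against EpiLC and 0 of 7 in pEpiLC against aEpiLC, with none called lower. Without pEpiLC replicate 1 the count against EpiLC was 2 of 7. The medians were 0.38, 0.54 and -0.20, and the last pair were 0.16 and -0.22 without pEpiLC replicate 1. The genes called were Egr2 in aEpiLC, at 0.469, 1.45 and 1.84 CPM against 0.231, 0.279 and 0.696 in EpiLC, and Egr3 in pEpiLC, at 1.53, 0.701 and 1.40 CPM against 0.139, 0.186 and 0.00. Both were named after their values were seen, and the Egr2 call was lost without aEpiLC replicate 2 or 3 or EpiLC replicate 1 or 2. In pEpiLC, Egr2 was at 0.766, 1.18 and 0.978 CPM, all above EpiLC, but not called (log2 1.25, edgeR adjusted p = 0.0583). Without pEpiLC replicate 1 it was called (log2 1.40, adjusted p = 0.0255). Egr3 in aEpiLC was at 0.375, 0.588 and 0.874 CPM, all above EpiLC, and failed the filter there. From EpiLC to pEpiLC, Egr3 rose by 3.43 (log2), or by 3.23 without pEpiLC replicate 1. With 1 library left out, the list's count ranged from 0 to 3 in aEpiLC against EpiLC and from 1 to 2 in pEpiLC against EpiLC.

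YAP-TEAD targets had 7 of 18 called higher and 0 lower in aEpiLC against EpiLC, with a median of 0.60. Ccn1 and Ccn2, secreted matricellular proteins that serve as standard readouts of YAP and of SRF, were among them. Ccn1 was at 24.0, 20.1 and 20.2 CPM in EpiLC, 59.7, 98.2 and 103 in aEpiLC and 12.5, 38.3 and 44.0 in pEpiLC, and rose by 2.01 ± 0.164 (log2, SE) in aEpiLC against EpiLC (edgeR adjusted p = 5.47e-07). Ccn2 was at 24.8, 22.2 and 21.3 CPM, at 61.4, 66.9 and 64.3 and at 6.46, 34.0 and 42.1, and rose by 1.48 ± 0.0763 (adjusted p = 9.81e-09). For both genes every pEpiLC library was below every aEpiLC library, and pEpiLC replicate 1 was the lowest of all 9. In pEpiLC against aEpiLC the log2 difference was -1.47 ± 0.419 for Ccn1 (adjusted p = 0.0519, and 0.00151 with a difference of -1.09 without pEpiLC replicate 1) and -1.23 ± 0.526 for Ccn2 (adjusted p = 0.158, and 1.51e-04 with a difference of -0.76 ± 0.0957, under 2-fold, without that library). With all libraries kept, Ccn1 was called there also by DESeq2 (adjusted p = 0.0471), the likelihood ratio test (0.0054), the fit with no filter (0.0446) and that of all 9 libraries (0.016). Lats2, a Hippo kinase that YAP induces in feedback, rose by 1.81 ± 0.147 in aEpiLC against EpiLC (adjusted p = 5.47e-07), from 3.71 to 13.1 CPM, and fell by 1.07 ± 0.141 to 6.28 CPM in pEpiLC (adjusted p = 0.00312), or by 1.09 without pEpiLC replicate 1.

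In pEpiLC against aEpiLC, 2 of 19 YAP-TEAD targets were called higher and 4 lower, with a median of -0.47, or 2 and 4 with -0.46 without pEpiLC replicate 1, so the list did not move one way. Nt5e, the ecto-nucleotidase CD73, was at 0.647, 0.698 and 0.609 CPM in EpiLC, 4.08, 4.21 and 3.40 in aEpiLC and 36.8, 37.9 and 32.1 in pEpiLC. It rose by 3.18 ± 0.135 (log2, SE) from aEpiLC to pEpiLC (edgeR adjusted p = 3.00e-05) and by 5.76 ± 0.144 from EpiLC to pEpiLC (adjusted p = 1.36e-06), or by 3.16 and 5.74 without pEpiLC replicate 1. Igfbp3, an IGF-binding protein, was at 31.4, 35.3 and 29.5 CPM in EpiLC, 26.9, 23.5 and 21.8 in aEpiLC and 198, 105 and 108 in pEpiLC. It rose by 2.50 ± 0.260 against aEpiLC (adjusted p = 0.00115, and 2.14 without pEpiLC replicate 1) and by 2.09 ± 0.251 against EpiLC (adjusted p = 8.07e-04, and 1.73 without it). Nuak2, a kinase of the AMPK family that acts on myosin phosphatase, fell by 3.05 ± 0.231 in pEpiLC against aEpiLC (adjusted p = 3.34e-04), from 10.1, 10.7 and 13.2 CPM to 1.10, 1.80 and 1.21, and the difference was -2.91 without replicate 1. The others called lower there, named after their values were seen, were Lats2, Tgfb2, at 2.02, 2.44 and 2.16 CPM in aEpiLC and 0.527, 0.745 and 0.885 in pEpiLC, and Ajuba, at 275, 306 and 320 CPM and 76.2, 171 and 174. Without pEpiLC replicate 1 the log2 difference of Ajuba, -1.11, became -0.80 and its call was lost, as it was without any 1 aEpiLC replicate (adjusted p up to 0.118). Tgfb2 lost its call when aEpiLC replicate 2 was left out (adjusted p = 0.0568), and the 4 lower were then 2. In pEpiLC against EpiLC, 3 of 18 targets were called higher (Nt5e, Igfbp3 and Tgfb2) and 1 lower (Nuak2), with a median of 0.47, or 4 and 1 of 19 with the same median without pEpiLC replicate 1. Tgfb2, at means of 0.719 CPM in pEpiLC and 0.257 in EpiLC, lost that call under DESeq2, without pEpiLC replicate 3 and without EpiLC replicate 2 or 3 (adjusted p up to 0.0890).

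The Hippo pathway core had 1 of 16 genes called higher in aEpiLC against EpiLC, 1 in pEpiLC against aEpiLC and 4 in pEpiLC against EpiLC, or 3 in the last without pEpiLC replicate 1 and 2 without EpiLC replicate 2, with none called lower. Yap1 was at 217 ± 4.81, 238 ± 4.94 and 223 ± 8.54 CPM (SD, n = 3) in EpiLC, aEpiLC and pEpiLC, with no call, and was chosen for mention after its values were seen. Tead1, a DNA-binding partner of YAP, rose by 1.18 ± 0.0740 (log2, SE) in aEpiLC against EpiLC (edgeR adjusted p = 5.73e-08), from 48.2 ± 4.22 to 110 ± 6.24 CPM. In pEpiLC against EpiLC it rose by 1.02 ± 0.0818 (adjusted p = 1.74e-04), or by 1.06 without pEpiLC replicate 1, and was just under 2-fold (log2 0.97 to 0.99) without pEpiLC replicate 3, without EpiLC replicate 2 or 3 and in the fit of all 9 libraries. Amot, the paralog of Amotl2, was at 22.1, 21.2 and 19.9 CPM in EpiLC, 37.8, 31.8 and 25.3 in aEpiLC and 421, 92.6 and 75.9 in pEpiLC. Its order over the states was thus not that of Amotl2, which was lowest in pEpiLC. Amot rose by 2.63 ± 0.645 in pEpiLC against aEpiLC (adjusted p = 0.0329) and by 3.22 ± 0.656 against EpiLC (adjusted p = 0.00656), which became 1.41 and 2.00 without pEpiLC replicate 1. The first of these calls was lost without any 1 aEpiLC replicate, with an adjusted p of 0.103 to 0.127. Sav1, a scaffold of the Hippo kinases, rose by 1.19 ± 0.142 in pEpiLC against EpiLC (adjusted p = 7.89e-04), from 19.0 to 43.5 CPM, and by 1.03 without pEpiLC replicate 1. Vgll4, a TEAD cofactor that competes with YAP, rose by 1.08 ± 0.269 there (adjusted p = 0.0145), and by 0.73, under 2-fold, without pEpiLC replicate 1. Without EpiLC replicate 1 or 2 the adjusted p for Vgll4 was 0.0596 or 0.0514.

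**Figure D4:**
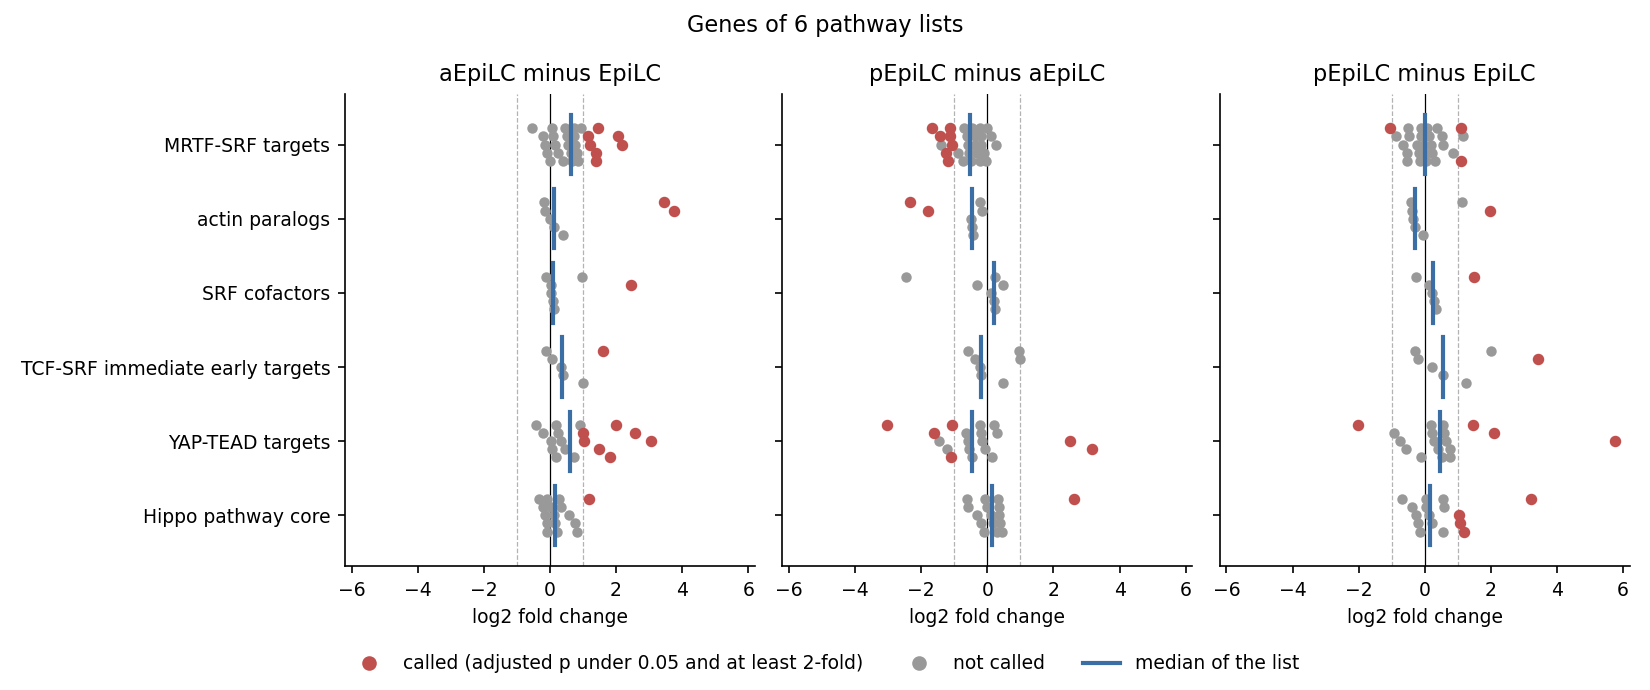
Log2 fold changes of the tested genes of 6 of the 7 pathway lists in the 3 comparisons (1 point a gene, red where called, grey where not), with each list's median as a blue line and dashed lines at 2-fold. MRTF-SRF targets and YAP-TEAD targets lie mostly to the right in aEpiLC minus EpiLC (medians 0.64 and 0.60), MRTF-SRF targets lie mostly to the left in pEpiLC minus aEpiLC (-0.52), and YAP-TEAD targets reach both ends there.

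The genes most like each of the 10 over the 9 libraries were ranked by Pearson's r of log2 CPM among 10723 genes with a mean of at least 5 CPM. The 9 libraries fall into 3 states, so that r mostly reflects differences between states, and it is given as a description. Acta2 was most like Vcl (r = 0.991), Myo1e (0.983) and Cnn2 (0.981), and Cnn1 most like Cnn2 (0.996), Myo1e (0.986) and Reep2 (0.985). Vcl and Cnn2, vinculin and calponin 2, are both in the list of MRTF-SRF targets. Tagln was most like Zdhhc2 (0.993), Actc1 (0.992) and Ttc27 (0.988), and Tpm1 most like Ccn1 (0.995), Reep2 (0.986) and Mageh1 (0.982). Myl9 was most like Spire2 (0.984), Gng3 (0.983) and Coro1a (0.982), of which Spire2 and Coro1a encode actin regulators. Amotl2 was most like Gprc5c (0.992), Stmn4 (0.990) and Otx2 (0.989), the last being the anterior epiblast factor. For Tpm2 the nearest were Mapk3 (0.984), Wdr86 (0.983) and Trpv2 (0.982), for Actn1 Csnk1e (0.963), Cables1 (0.952) and Dpysl5 (0.948), and for Srf Atf3 (0.922), Pmf1 (0.915) and Tyw5 (0.909). Srf thus had the weakest nearest match of the 9, and Ankrd1, with 0 to 3 counts in each library, was left out.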

How the data were processed

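RNA-seq was made from 3 EpiLC, 3 aEpiLC and 3 pEpiLC libraries. Per the submitters' processing notes the reads were mapped to GRCm38 with STAR 2.7.9a and counted with RSEM 1.3.1, and the authors deposited these expected counts for each gene symbol as RSEM gave them, not normalized. RSEM divides reads of uncertain origin among genes, and 20.2% of the values were not whole (tolerance 0.005). The annotation, read cleaning and strand setting are not given in the sources used here. Expected counts were rounded. Gene positions came from GENCODE vM21 (GRCm38), in which 22803 symbols (97.2%) matched 1 gene, and promoters from RefSeq.

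Each pair of states was fitted to its own 6 libraries in edgeR 4.0.16 (R 4.3.3) with TMM, filterByExpr and the quasi-likelihood test. Standard errors are the absolute log2 fold change over the square root of F. Procedures were tested on simulated data. Total counts of 20560564 to 23417917 per library limit the precision of genes with few counts. Alternatives were RLE size factors, DESeq2 1.42.0, the likelihood ratio test, no filter, all 9 libraries in one fit, the replicate number as a block, and leaving out each replicate.

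The 10 genes, the lists and the tests were chosen with earlier results of these data known. Named beside the 10 genes are the actin paralogs and SRF cofactors and, in each other pathway list and comparison, up to 3 called genes with the largest absolute log2 fold change, no overlap of libraries and a mean of at least 5 CPM. Also named are the 3 genes most like each gene by Pearson's r over the 9 libraries. The result of 1 pathway list is not reported here, although its genes are in the counts over all lists.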

Additional observations from a re-analysis of the deposited data

How the results depend on the processing

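Under the 6 alternatives that kept all libraries (RLE size factors, DESeq2, the likelihood ratio test, no filter, all 9 libraries in one fit, the replicate block), each of the 6 counts over all pathway lists together stayed within 1.5 times that reported. Counts of single lists moved further, from 0 to 1 lower for the SRF cofactors in pEpiLC against aEpiLC (likelihood ratio test, replicate block), and in pEpiLC against EpiLC from 1 to 2 higher for the actin paralogs (DESeq2, likelihood ratio test), from 1 to 2 or 3 higher for the TCF-SRF targets (DESeq2 and all 9 libraries, likelihood ratio test) and from 1 to 2 lower for the YAP-TEAD targets (replicate block). In aEpiLC against EpiLC the TCF-SRF targets went from 1 to 2 higher (no filter, all 9 libraries). With the replicate block the counts were 3 higher and 16 lower in pEpiLC against aEpiLC, 12 and 4 in pEpiLC against EpiLC, and 18 and 1 in aEpiLC against EpiLC. The replicate block also called Ccn1 and Myocd lower in pEpiLC against aEpiLC (log2 -1.60 and -2.61, adjusted p = 0.00631 and 0.0455), neither of which was called in the reported fit. The replicate numbers were not taken to pair the samples, since deviations of same-numbered libraries correlated at 0.172, 0.117 and 0.062 between pEpiLC and aEpiLC, and at no more than 0.034 in the other pairs of states. Between pEpiLC and aEpiLC every library correlated best with its own number, a hint from the data and not from the design. Leaving out each replicate gave 2 to 3 genes higher and 5 to 13 lower in pEpiLC against aEpiLC, 9 to 13 higher and 2 to 4 lower in pEpiLC against EpiLC, and 17 to 21 higher and 1 lower in aEpiLC against EpiLC. The 5 came without aEpiLC replicate 2, with 6 without replicate 3 and 9 without replicate 1, fits that have fewer samples. Of 324 recomputed log2 fold changes of the 9 genes that passed the filter, all lay within 1 SD of the libraries and 4 differed in sign. For the 162 that left out 1 library the SD limit could hardly be passed. Leaving out 1 of 3 values moves a mean by less than their SD, so no stability is read from it. These were Actn1 in pEpiLC against EpiLC without pEpiLC replicate 1 (-0.16 against 0.16), Tpm2 in aEpiLC against EpiLC without aEpiLC replicate 3 or EpiLC replicate 1 (-0.05 in each, against 0.03), and Srf in aEpiLC against EpiLC without aEpiLC replicate 3 (-0.05 against 0.12). For the named pathway genes, 542 of 552 recomputed results were unchanged when all libraries were kept and 518 of 552 when 1 was left out, and 0 reversed. Genes without a call in the reported fit, such as Actb and Mrtfa, count as unchanged when again not called. These shares therefore do not measure how often calls held. When 1 library was left out, calls were lost in 28 results and gained in 6. At this depth a gene with 3 counts or fewer in each library, such as Ankrd1, could not be compared.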
